A study of Ovis aries with 9 samples.

Results

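A set of 10 genes that mark astrocytes or carry out their transport in the brain were followed through puberty in the hypothalamus of Dolang sheep (Ovis aries). They were GFAP, AQP4, SLC1A2, SLC1A3, S100B, GJA1, ALDH1L1, GLUL, ALDOC and SPARCL1. The 10 genes were chosen by name, and the level of each was the sum over its RefSeq mRNA transcripts (21 in all) in every library. All 10 had values and all 10 passed the filter on low values, out of 21284 genes with a value and 14238 genes tested. Levels are given in FPKM, a unit scaled by transcript length and by the number of mapped fragments. Hypothalami came from ewes for which no treatment is named, 3 at prepuberty (120 to 121 days of age), 3 at puberty (130 to 131 days) and 3 at postpuberty (150 to 151 days), with 1 library per ewe. Puberty was judged from behaviour and vulval mucus at the first heat. Stage and age rise together in this design, so that they cannot be told apart. Whole tissue was sequenced, and fewer astrocytes and less RNA per astrocyte cannot be told apart either.

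The library Puberty 2 stood apart from the rest before any astrocyte gene was considered. Its FPKM summed to 599726, against 359588 to 398109 in the other 8 libraries, and 42441 of its transcripts were above 0, against 67824 to 71787. In Puberty 2, 72.1% of the genes tested lay outside the range of the other libraries (8.27% to 29.1% in each of the others). Among them were 6 of the 10 astrocyte genes, of which AQP4, SLC1A2, GJA1 and SPARCL1 were lower and ALDH1L1 and ALDOC higher than in any other ewe. Results are therefore given with all 9 libraries and without Puberty 2. Of 16 markers of hypothalamic neurons and their lineage, 8 were below 1 FPKM in every library, including AGRP and NKX2-1, and GNRH1 was listed at 0 throughout. The highest values of OXT and AVP were 4.81 and 10.4 FPKM, and POMC ranged from 2.09 to 22.5 FPKM, with the maxima of AVP and POMC in Puberty 2. Other markers of this list reached higher levels. SST ranged from 4.27 to 107 FPKM, TRH from 0.824 to 36.8 FPKM and CRH from 0.392 to 118 FPKM. The table gives FPKM without read counts per transcript, so the number of reads behind each value, and with it the counting error, is unknown.

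Astrocytes are the star-shaped glia that surround synapses and blood vessels. They take up the glutamate that neurons release, turn it into glutamine and hand it back, and they buffer potassium and water through channels on their vessel-facing endfeet. Gap junctions couple them into a network. In the hypothalamus, astrocytes and the related tanycytes lie around the cell bodies and endings of the neurons that release gonadotropin-releasing hormone, and changes in glial wrapping and glial signals are among the events studied at the onset of puberty.

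Astrocyte transcripts were among the most abundant messages in this tissue. Ranked by mean FPKM over the 8 libraries without Puberty 2, GFAP was number 2 of 14238 genes, S100B number 5, SPARCL1 number 13, ALDOC number 29 and GLUL number 47. SLC1A3 followed at rank 215, AQP4 at 237, GJA1 at 562, SLC1A2 at 739 and ALDH1L1 at 2123. The 10 genes together held 2.49% to 4.25% of the summed gene FPKM in the 8 libraries and 2.72% in Puberty 2. In the order of levels, the ranges of GFAP, S100B and SPARCL1 did not overlap between neighbours, nor did those of GLUL and SLC1A3. Neighbours in the rest of the order (SPARCL1 and ALDOC, ALDOC and GLUL, SLC1A3 and AQP4, AQP4 and GJA1, GJA1 and SLC1A2, SLC1A2 and ALDH1L1) overlapped in range.

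**Figure D1:**
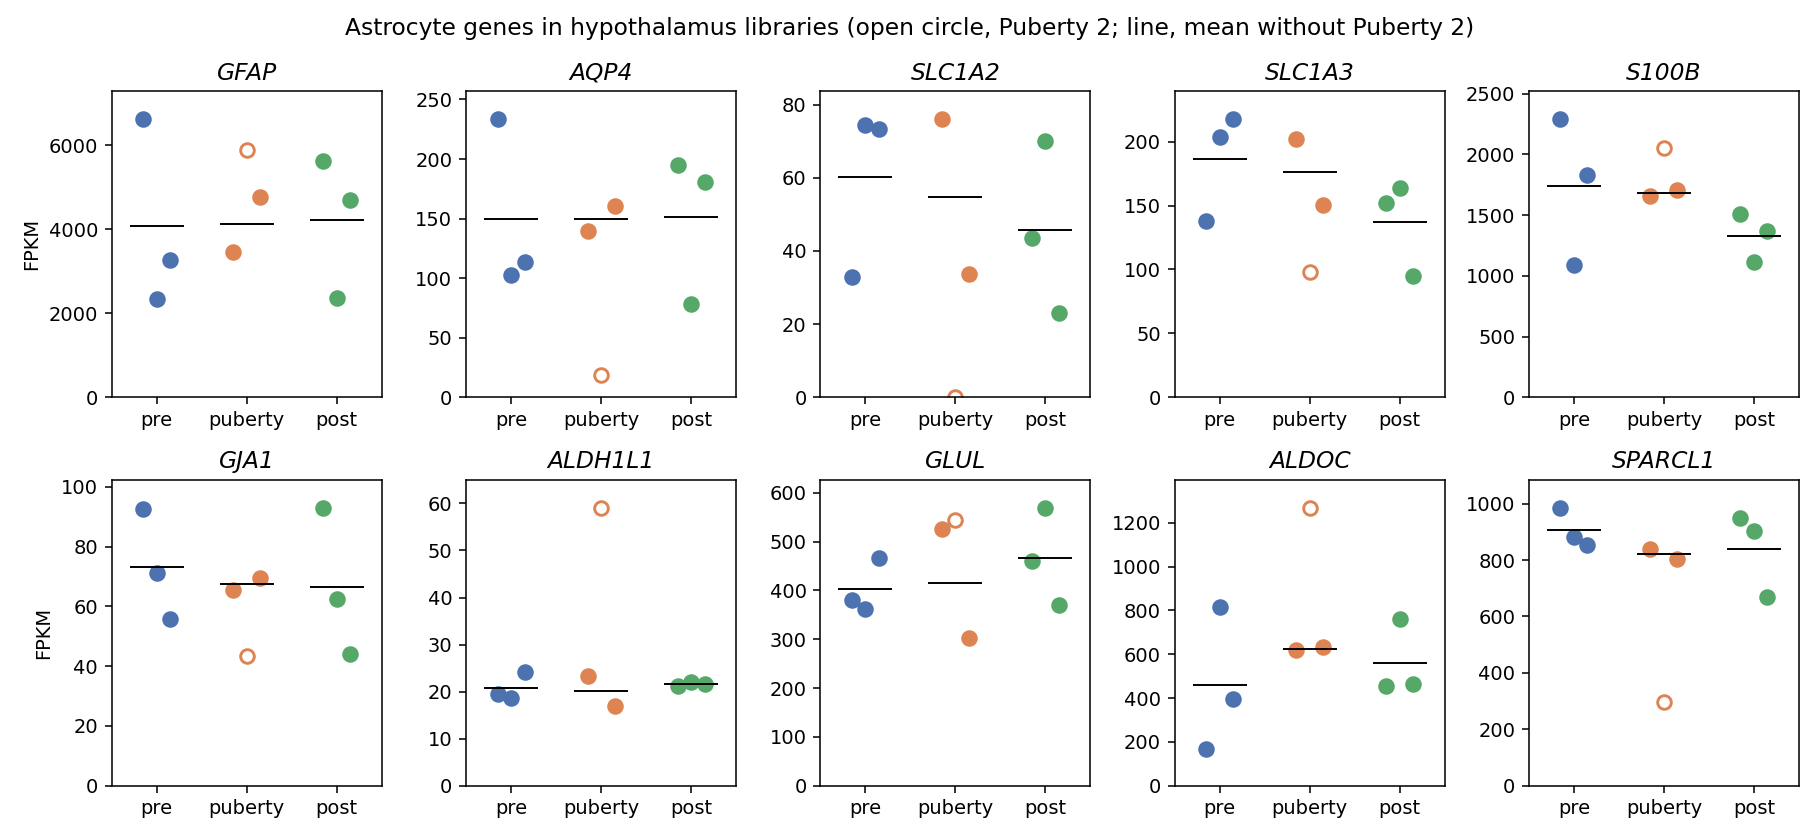
FPKM of each astrocyte gene (vertical axis, from 0) in the libraries of the 3 stages (horizontal axis; pre, prepuberty; post, postpuberty). Each point is 1 ewe, the open circle is Puberty 2 and the line is the stage mean without Puberty 2. The stage means of GFAP lie close together (4085, 4117 and 4232 FPKM), while the ewes of 1 stage span up to 2348 to 6624 FPKM.

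GFAP encodes the glial fibrillary acidic protein, the intermediate filament protein by which astrocytes are commonly stained. Its level was 6624, 2348 and 3282 FPKM in the 3 prepubertal ewes, 3456, 5886 and 4779 FPKM in the pubertal ewes and 5632, 2370 and 4693 FPKM in the postpubertal ewes. High and low ewes occurred in every stage, and the stages overlapped fully. The spread between ewes was 2.82-fold over the 8 libraries, whereas 1.14% of the variance of log2(FPKM + 1) lay between stages. GFAP alone made up 38.8% to 60.4% of the summed FPKM of the 10 genes in these libraries.

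S100B, a calcium-binding protein of astrocytes that oligodendrocytes also make, was measured at 2288, 1091 and 1826 FPKM in prepuberty, 1655, 2054 and 1703 FPKM in puberty and 1508, 1112 and 1371 FPKM in postpuberty. Every postpubertal ewe lay below every pubertal ewe, with means of 1330 ± 201 and 1804 ± 218 FPKM (SD, n = 3 each). Prepubertal ewes lay on both sides of both other stages.

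AQP4 forms the water channel of astrocyte endfeet and of the ependymal lining. Its level was 233, 103 and 114 FPKM in prepuberty, 140, 18.3 and 160 FPKM in puberty, and 195, 78.4 and 181 FPKM in postpuberty. Apart from Puberty 2, where the level was 0.122 times the median of the other libraries, the stages overlapped and their means were nearly equal, at 150.0 FPKM in prepuberty, 150.0 FPKM in puberty and 152 FPKM in postpuberty. AQP4 followed GFAP closely from ewe to ewe. The ratio of GFAP to AQP4 stayed between 22.9 and 30.2 in the 8 libraries, although each gene varied nearly 3-fold, and was 321 in Puberty 2.

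The glutamate transporters SLC1A2 (GLT-1, EAAT2) and SLC1A3 (GLAST, EAAT1) clear glutamate from the synaptic space. SLC1A2 was measured at 32.8, 74.4 and 73.3 FPKM in prepuberty, 76.0, 0.00353 and 33.6 FPKM in puberty and 43.5, 70.1 and 23.1 FPKM in postpuberty. Puberty 2 was thus nearly empty of SLC1A2, while its GFAP level was 1.44 times the median of the other libraries. The other 8 libraries spanned 3.28-fold, and each stage held both a high and a low ewe. SLC1A3 was measured at 138, 204 and 218 FPKM in prepuberty, 202, 98.0 and 150 FPKM in puberty and 152, 164 and 95.0 FPKM in postpuberty. It was less depleted in Puberty 2, at 0.622 times the median, and the value there was not the lowest of the series. Of the 10 genes, SLC1A3 had the highest share of variance between stages without Puberty 2 (33.6%), with means of 187 ± 42.3 FPKM in prepuberty and 137 ± 36.6 FPKM in postpuberty (SD, n = 3 each), and these stages overlapped.

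GLUL encodes glutamine synthetase, the enzyme that converts the glutamate taken up into glutamine. Its level was 380, 362 and 466 FPKM in prepuberty, 527, 545 and 303 FPKM in puberty and 460, 569 and 370 FPKM in postpuberty. The stages overlapped, and Puberty 2 lay within the range of the others at the level of the gene, but not in the makeup of its 3 transcripts. In the 8 libraries XM_027975934.2 held 47.3% to 81.6% of the GLUL level, XM_027975935.2 held 8.96% to 24.2% and XM_060396185.1 held 7.3% to 28.7%. In Puberty 2 they were at 283, 258 and 3.41 FPKM, or 51.9%, 47.4% and 0.626%. The share of the second was thus above, and that of the third below, its range in all other ewes.

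**Figure D2:**
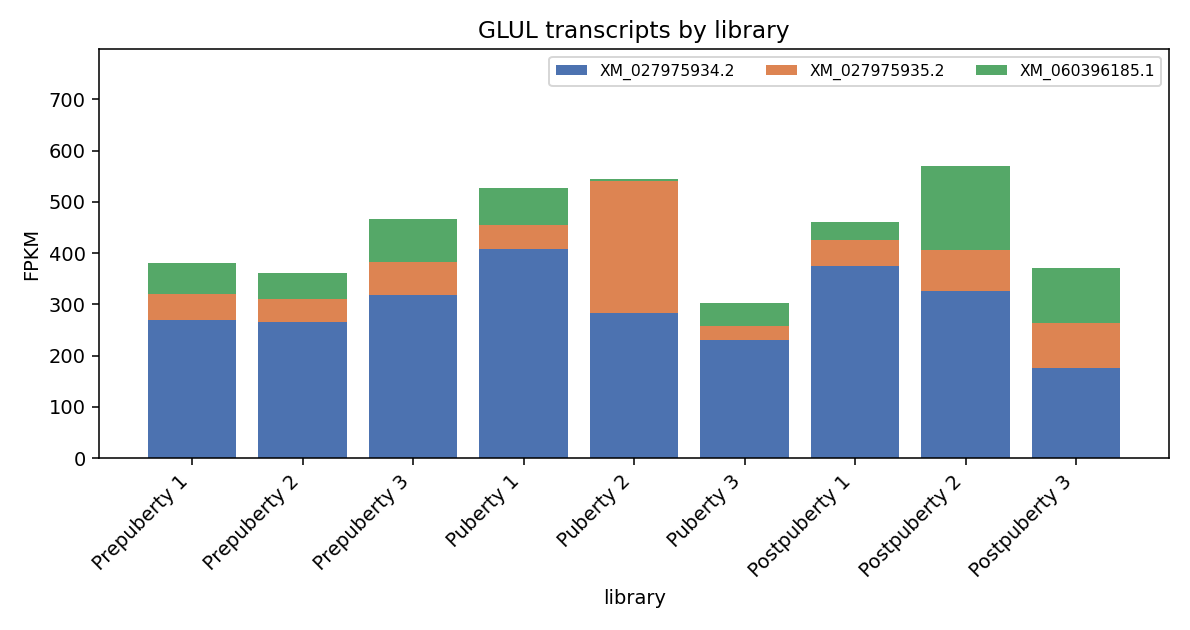
FPKM of the 3 GLUL transcripts (stacked bars, vertical axis from 0) in each of the 9 libraries (horizontal axis). The summed bar of Puberty 2 (545 FPKM) lies within the range of the other libraries (303 to 569 FPKM), but XM_027975935.2 reaches 258 FPKM there against at most 89.5 FPKM elsewhere.

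GJA1 encodes connexin 43, the main gap junction protein of astrocytes. It was measured at 92.5, 71.0 and 55.9 FPKM in prepuberty, 65.6, 43.4 and 69.5 FPKM in puberty and 93.0, 62.5 and 43.9 FPKM in postpuberty. Its stage means without Puberty 2 differed little (73.1, 67.5 and 66.5 FPKM) beside a 2.12-fold spread between ewes. SPARCL1 (hevin) is a matricellular protein that astrocytes secrete and that promotes synapse formation. Its level was 985, 882 and 853 FPKM in prepuberty, 838, 296 and 802 FPKM in puberty and 949, 903 and 670.0 FPKM in postpuberty. All pubertal ewes lay below all prepubertal ewes, also when Puberty 2 was left aside, although the gap between the nearest of them (853 and 838 FPKM) was small.

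ALDH1L1, a folate enzyme used as a broad astrocyte marker, had the steadiest level of the 10 genes over the 8 libraries without Puberty 2. It was measured at 19.6, 18.7 and 24.2 FPKM in prepuberty, 23.4, 59.1 and 16.9 FPKM in puberty and 21.2, 22.0 and 21.7 FPKM in postpuberty. Without Puberty 2, where it was 2.75 times the median, ALDH1L1 spanned 1.43-fold, and its SD on the log2 scale (0.165) exceeded that of 20.2% of the genes tested. ALDOC, the brain form of the glycolytic enzyme aldolase, lay at the other end. Its level was 168, 817 and 397 FPKM in prepuberty, 618, 1268 and 633 FPKM in puberty and 457, 761 and 465 FPKM in postpuberty. The spread over the 8 libraries was 4.85-fold, and both the lowest and the highest of the 8 values occurred in prepuberty.

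Apart from GLUL, 1 RefSeq transcript carried at least 81.4% of the level of each gene in each of the 8 libraries without Puberty 2. S100B (XM_004003392.5), GJA1 (XM_004011159.5), ALDH1L1 (XM_042236479.1) and ALDOC (XM_015098536.4) were represented by 1 transcript each. GFAP was carried by XM_027974414.2, with 93.1% to 95.9% of the gene's FPKM in the 8 libraries, and this share was 94.6% in Puberty 2. The main transcript of AQP4, NM_001009279.1, held 81.4% to 96.4% in the 8 libraries and 100% in Puberty 2, where the other 2 AQP4 transcripts were listed at 0. XM_027979630.2 of SLC1A2 held at least 95.9% in each of the 8 libraries, XM_004017043.4 of SLC1A3 at least 98.6% and XM_004009982.5 of SPARCL1 at least 98.8%. On the sheep assembly ARS-UI_Ramb_v3.0 the RefSeq gene of GFAP lies at chr11:44351870-44361246, AQP4 at chr23:30388118-30402743, SLC1A2 at chr15:64573795-64740182 and SLC1A3 at chr16:37720041-37800700. S100B lies at chr1:267003276-267010543, GJA1 at chr8:17021166-17034369, ALDH1L1 at chr19:60432666-60459071, GLUL at chr12:62912981-62923557, ALDOC at chr11:19975760-19979297 and SPARCL1 at chr6:103084231-103135333.

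The 3 stage comparisons asked whether the astrocyte genes changed as the ewes entered and passed puberty. With all 9 libraries, 0 of the 10 genes were called in any comparison by limma (adjusted p below 0.05 over all genes, with log2 fold changes of 1 or more in either direction), nor were any of the 14238 genes tested, so that the background of called genes was 0%. At an unadjusted p below 0.05, limma gave 259 genes between prepuberty and puberty, 305 between puberty and postpuberty and 116 between prepuberty and postpuberty, and 0 of the 10 in each. Without Puberty 2 limma again called 0 of the 10 genes and 0% of the 14209 genes tested, with 236, 300 and 265 genes at an unadjusted p below 0.05 and 0 of the 10 among them. The smallest adjusted p of the 10 genes in limma was 0.838, 0.78 and 1 in the 3 comparisons with all libraries and 1 in each without Puberty 2. A missed threshold with 3 ewes per stage does not show that levels were equal.

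The median log2 fold change of the 10 genes was -0.09 from prepuberty to puberty, -0.03 from puberty to postpuberty and -0.06 from prepuberty to postpuberty, beside medians of -0.14, 0.19 and 0.05 over all genes tested. Of the 10 differences, 5 were positive in each comparison. Without Puberty 2 the medians of the 10 genes were -0.03, -0.09 and -0.06 beside 0.02, 0.03 and 0.05 over all genes. Most of the larger differences came and went with Puberty 2. SLC1A2 was lower in puberty than in prepuberty by -2.05 on the log2 scale (SE 1.35, limma adjusted p = 0.838) with that library and by -0.15 (SE 0.57, limma adjusted p = 1) without it. AQP4 went from -0.89 (SE 0.78) to 0.10 (SE 0.48) in the same comparison, SPARCL1 from -0.63 (SE 0.42) to -0.14 (SE 0.22) and ALDH1L1 from 0.45 (SE 0.40) to -0.05 (SE 0.18). ALDOC, at 461 ± 329 FPKM in prepuberty and 840 ± 371 FPKM in puberty (SD, n = 3 each), differed by 1.06 (SE 0.56, limma adjusted p = 0.838) with Puberty 2 and by 0.72 (SE 0.60, limma adjusted p = 1) without it. That difference also moved with prepubertal ewes, to 0.47 without prepuberty 1 and 1.61 without prepuberty 2.

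From puberty to postpuberty, the difference of SLC1A2 was 1.61 (SE 1.35) with Puberty 2 and -0.28 (SE 0.57) without it, and that of AQP4 was 0.90 (SE 0.78) and -0.09 (SE 0.48). S100B differed by -0.44 (SE 0.35) with the library and -0.35 (SE 0.34) without it, with a limma adjusted p of 0.78 and 1. Between prepuberty and postpuberty, a comparison that Puberty 2 enters only through the shared variance, the differences ran from -0.46 for SLC1A3 (SE 0.35, or 0.28 without Puberty 2) to 0.52 for ALDOC (SE 0.56, or 0.53), which was -0.06 without prepuberty 1 and 1.07 without prepuberty 2. The difference of SLC1A3 was smaller without postpuberty 3, the library where it was lowest. GFAP differed by 0.10 in that comparison (SE 0.51, or 0.49), a difference that was larger without prepuberty 1 and negative without prepuberty 2. Across the 10 genes, the median share of variance between stages was 10.5% without Puberty 2, beside 14.3% over all genes, and 19.9% with it, beside 18.9%.

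**Figure D3:**
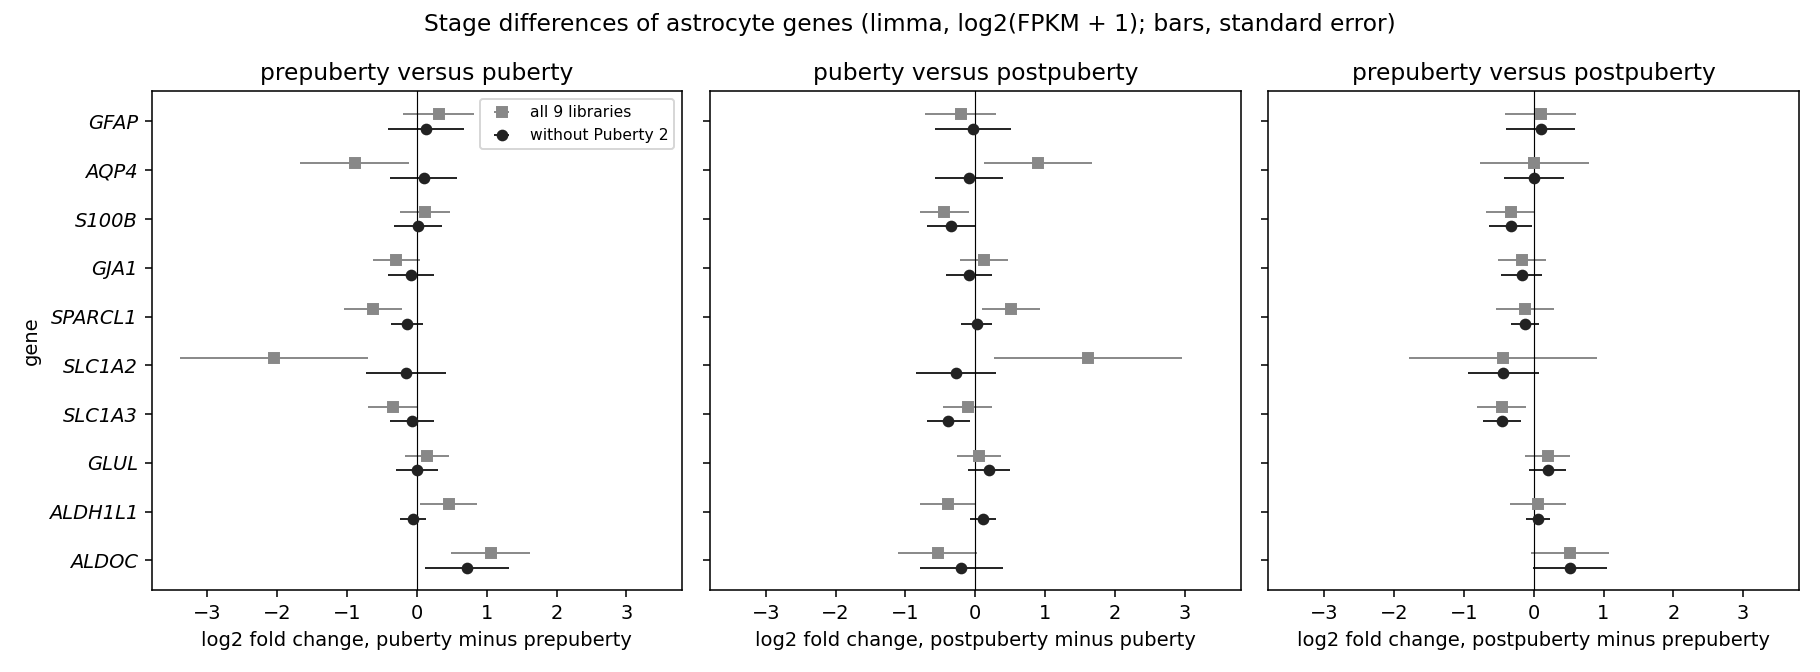
Log2 fold change of each astrocyte gene (vertical axis) in the 3 stage comparisons, later minus earlier stage, from limma on log2(FPKM + 1). Squares are fits with all 9 libraries, circles fits without Puberty 2, and bars are 1 standard error. The difference of SLC1A2 between prepuberty and puberty moves from -2.05 to -0.15 when Puberty 2 is left out, and its standard error from 1.35 to 0.57.

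The separations of SPARCL1 and S100B noted above were set beside their frequency among all genes. SPARCL1 was the 1 gene of the 10 whose prepubertal and pubertal ewes did not overlap, and 5.16% of all genes tested were separated in this way, or 11.7% without Puberty 2. Between puberty and postpuberty S100B was the 1 separated gene of the 10, beside 7.32% of all genes, or 14% without Puberty 2. Between prepuberty and postpuberty 0 of the 10 were separated, beside 4.57% of all genes. Under other scalings, a check chosen after the data had been seen, the separation of SPARCL1 was absent after upper quartile scaling and after quantile normalization. That of S100B was absent after quantile normalization and, with all 9 libraries, after scaling to equal totals.

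At the level of transcripts, 17 of the 21 passed the filter, and limma called 0 of them in each comparison, with and without Puberty 2, as it called 0% of the 27674 (27243 without Puberty 2) transcripts tested. At an unadjusted p below 0.05, limma gave 858, 952 and 477 of all transcripts with 9 libraries and 0 of the 17 in each comparison. Without Puberty 2 it gave 912, 947 and 864 of all transcripts, and 1, 2 and 0 of the 17. These were the minor SLC1A3 transcript XM_042233857.2 in both comparisons with puberty and the second GLUL transcript, XM_027975935.2, between puberty and postpuberty, with limma adjusted p-values of 0.935 to 1. XM_042233857.2 reached at most 2.58 FPKM in any ewe, beside 94.6 to 218 FPKM of the main SLC1A3 transcript in the 8 libraries. It passed the filter only through puberty, the stage where it was high (mean 2.36 FPKM without Puberty 2, against 0.442 FPKM in prepuberty and 0.207 FPKM in postpuberty), so its p-values are no support for a difference.

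**Figure D4:**
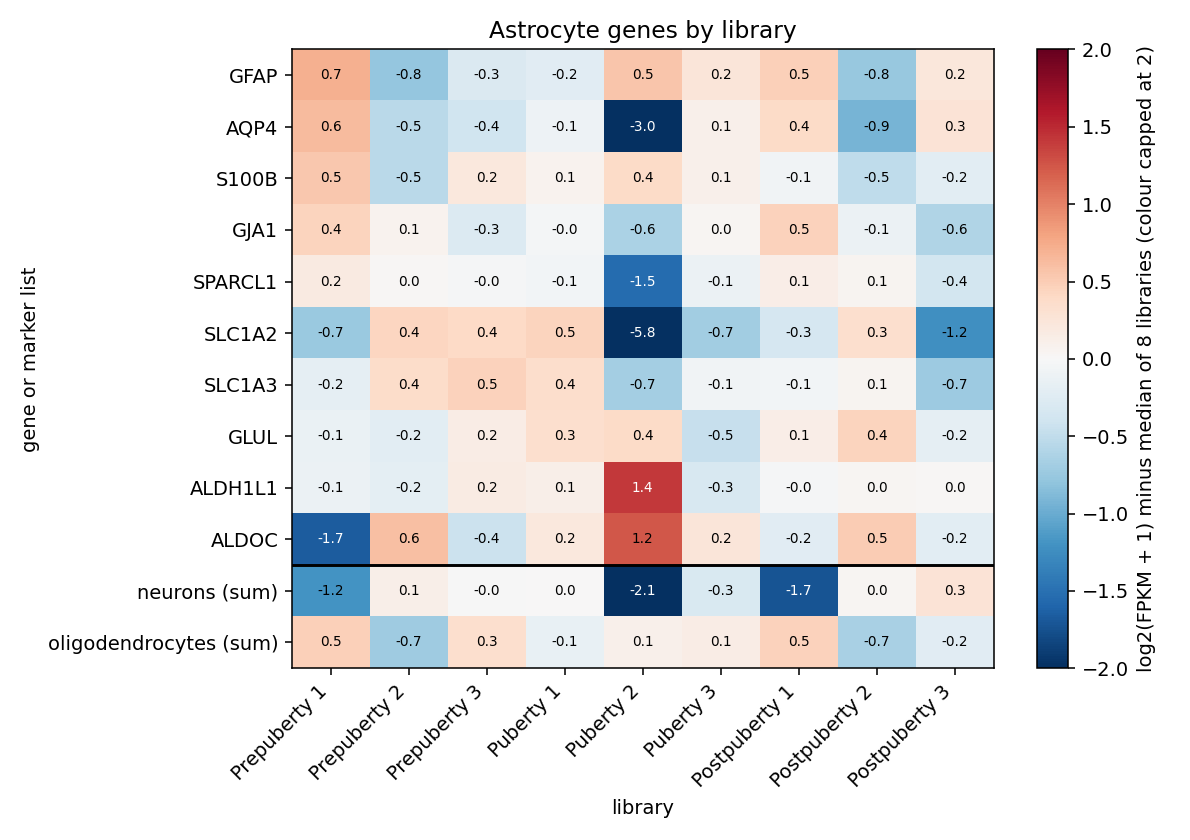
Log2(FPKM + 1) of each astrocyte gene (upper rows) and of the summed neuron and oligodendrocyte markers (lower rows) in each library (columns), minus the median of the 8 libraries without Puberty 2. Red is above and blue below that median, with colour capped at 2. GFAP and AQP4 share their highest library (prepuberty 1), where ALDOC is lowest (168 FPKM).

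The astrocyte genes did not vary together as 1 block across ewes. Correlations were computed over the 8 libraries without Puberty 2, with exact permutation p-values over all 40320 orders and adjustment over the 14208 genes compared with each astrocyte gene. Of the 45 pairs, 24 had a positive and 21 a negative Pearson's r, 5 were above 0.7 and 5 below -0.7. None of the pairs had an adjusted p below 0.05, so the values that follow describe these 8 libraries. The smallest permutation p that 8 libraries can give in r is 2.48e-05, which adjusts to 0.352 for a gene alone at that value. A pair could thus pass only where several genes had p-values as small, and a missed threshold says little. The closest pair was GFAP and AQP4, with r = 0.97 and Spearman's rho = 0.95 (exact permutation p = 9.92e-05 and 0.00114, adjusted p = 0.0582 and 0.0730), and r was 0.96 without the 2 libraries of most extreme GFAP and 0.97 within stages. AQP4 held rank 23 of 14208 genes by its r with GFAP. SLC1A2 and SLC1A3 had r = 0.92 and rho = 0.91 (exact permutation p = 0.000248 and 0.00456, adjusted p = 0.138 and 0.268), and r was 0.83 without the 2 libraries of most extreme SLC1A2 and 0.96 within stages. For GJA1 and SPARCL1 the values were lower (r = 0.87, rho = 0.69, exact permutation p = 0.00523 and 0.0694, adjusted p = 0.906 and 0.946) and r was 0.65 without the 2 libraries of most extreme GJA1. ALDH1L1 and GLUL did not pass the adjustment by a wide margin (r = 0.82, rho = 0.83, exact permutation p = 0.0136 and 0.0154, adjusted p = 1 and 0.987) and r was 0.54 without the 2 libraries of most extreme ALDH1L1.

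Between GFAP and AQP4 and the transporters, r was negative for each pair, more so for SLC1A2 than for SLC1A3 (-0.76 for AQP4 with SLC1A2, -0.58 for GFAP with SLC1A3 and -0.56 for AQP4 with SLC1A3), and none passed the adjustment. GFAP and SLC1A2 had r = -0.78 and rho = -0.67 (exact permutation p = 0.0284 and 0.0831, adjusted p = 0.132 and 0.255), with r = -0.71 without the 2 libraries of most extreme GFAP and -0.80 within stages. The ratio of GFAP to SLC1A2 ran from 31.5 in prepuberty 2 to 203 in postpuberty 3, and high ratios (above 100) occurred in each stage, in prepuberty 1, puberty 3 and both postpuberty 1 and postpuberty 3. ALDOC and S100B had r = -0.83 and rho = -0.79 (exact permutation p = 0.00744 and 0.0279, adjusted p = 0.118 and 0.190), a relation that weakened to r = -0.53 without the 2 libraries of most extreme ALDOC. No astrocyte gene had a correlation with any gene at an adjusted permutation p below 0.05, although 28.3% of the genes compared reached an unadjusted p below 0.05 with GFAP, 22.9% with AQP4, 21.1% with ALDOC and 2.98% with SPARCL1. With Puberty 2 added, r between GFAP and AQP4 was 0.09, and 14 of the 45 pairs changed sign.

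**Figure D5:**
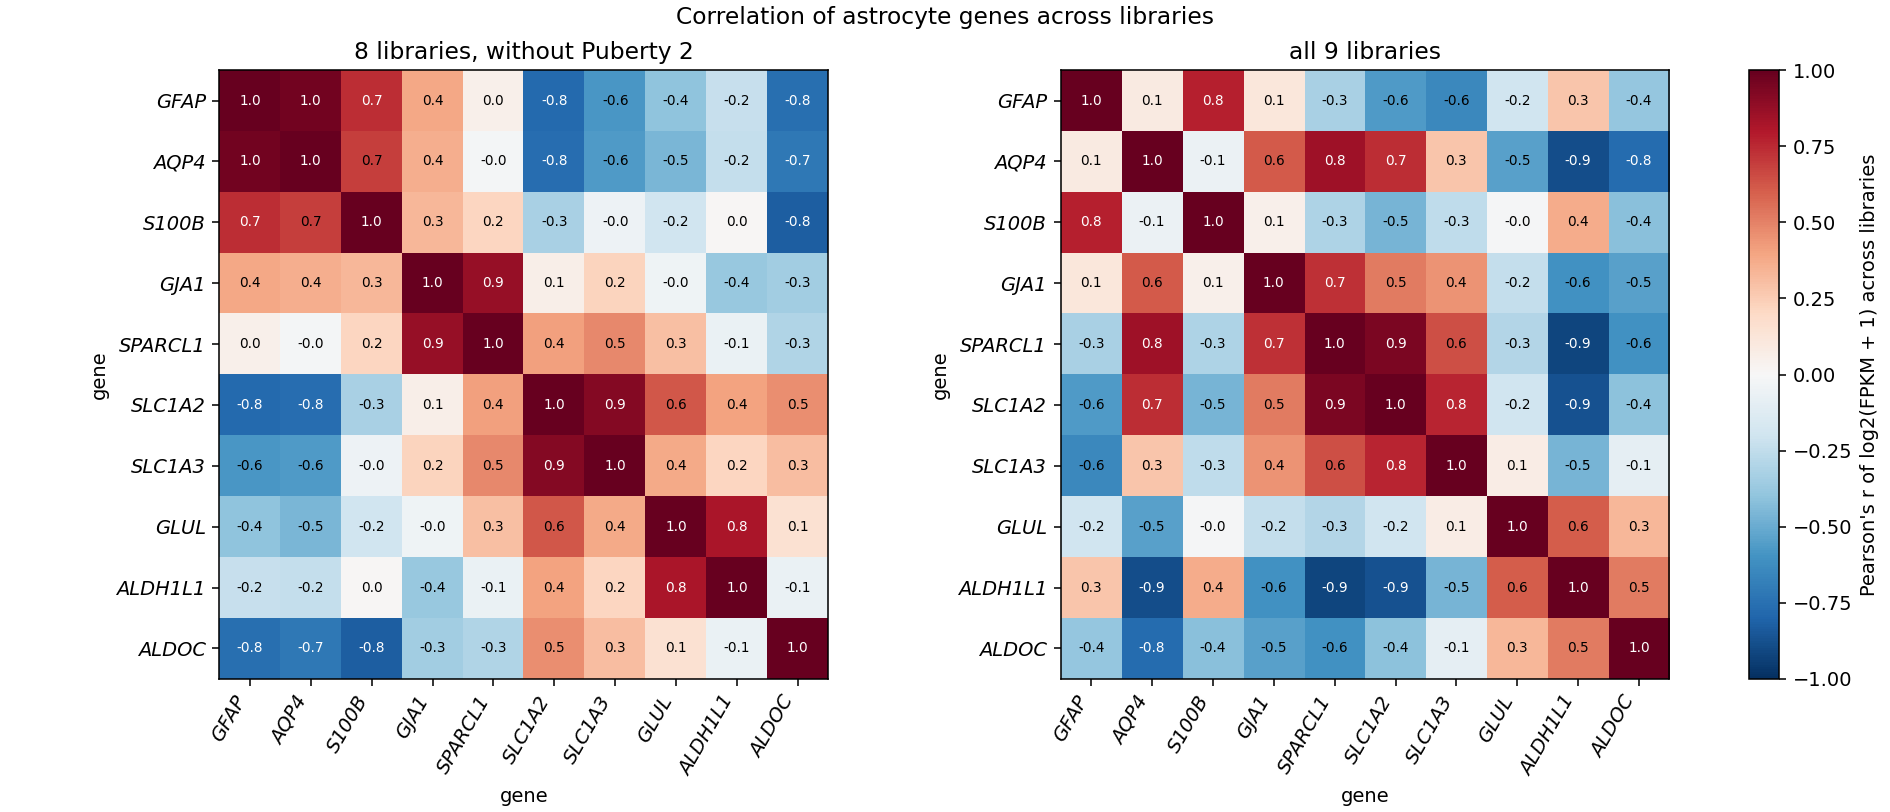
Pearson's r of log2(FPKM + 1) between each pair of astrocyte genes (both axes) over 8 libraries without Puberty 2 (left) and over all 9 (right). On the left, r is 0.97 between GFAP and AQP4 and 0.92 between SLC1A2 and SLC1A3, and r between GFAP and AQP4 is 0.09 on the right.

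Markers of other cell types moved across the same libraries, and their part in the astrocyte values was not tested. The 10 neuron markers with values, among them SNAP25 and SYT1, summed to 448 to 1799 FPKM in the 8 libraries and 338 FPKM in Puberty 2, and the 8 oligodendrocyte markers, led by myelin genes such as MBP, to 6549 to 14910 FPKM and 11423 FPKM. Neuron markers were lowest of the 8 libraries in postpuberty 1 and prepuberty 1 (448 and 648 FPKM), the libraries with the highest GFAP, AQP4 and GJA1. Microglia markers (8 genes) summed to 98.9 to 482 FPKM, endothelial and mural markers (7 genes) to 137 to 439 FPKM and choroid plexus markers (4 genes) to 9.71 to 730 FPKM in 7 of the 8 libraries and 7643 FPKM in puberty 3. In Puberty 2 these sums were 273, 678 and 555 FPKM, and the endothelial and mural sum there was almost all CLDN5 (624 FPKM, against 54.7 to 114 FPKM in the other ewes). Of the 7 vessel markers, 4 (PECAM1, FLT1, PDGFRB and RGS5) lay below and 2 (CLDN5 and VWF) above their range in the other ewes. This stands beside 72.1% of all genes tested outside that range in Puberty 2, so it is not particular to vessel markers. None of the neuron, oligodendrocyte or microglia markers with values was listed at 0 in all libraries or stayed below 1 FPKM throughout. Of the 8 ependymal and tanycyte markers, 4 stayed below 1 FPKM in every library, and RARRES2, a secreted protein that is not confined to these cells, made up most of the sum, at 24.5 to 99.3 FPKM of 27.0 to 114 FPKM in the 8 libraries and 315 of 321 FPKM in Puberty 2. All 5 ependymal and tanycyte markers tested and all 4 choroid plexus markers had positive differences from prepuberty to puberty and negative ones from puberty to postpuberty, with and without Puberty 2, and limma called 0 of them. Without Puberty 2 their median log2 fold changes were 0.47 and -0.76 for the ependymal and tanycyte markers and 1.91 and -1.29 for the choroid plexus markers. CFAP43 and CLIC6 passed the filter only through puberty, the stage where they were high, so their directions are no support for a difference. The choroid plexus values of puberty differed widely between ewes, with TTR at 255 FPKM in puberty 1 and 7594 FPKM in puberty 3. How many of all genes rose and fell in this way was not counted.

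Between the 10 genes and 6 such sums, 60 correlations were computed over the 8 libraries, with adjustment over all 60. This adjustment is less strict than the one over 14208 genes above, so the adjusted p-values of the 2 cannot be compared. Of all genes compared, 28.3% had an unadjusted permutation p below 0.05 with GFAP and 22.9% with AQP4. GFAP and AQP4 passed the adjustment in r with the ependymal and tanycyte sum, with r = 0.94 and rho = 0.95 for GFAP (exact permutation p = 0.000843 and 0.00114, adjusted p = 0.0253 and 0.0669) and r = 0.94 and rho = 0.93 for AQP4 (exact permutation p = 0.000818 and 0.00223, adjusted p = 0.0253 and 0.0669). Most of that sum was RARRES2, which is not confined to these cells. Without the 2 libraries of most extreme sum, r was 0.90 and 0.83, and within stages it was 0.98 and 0.96. No other relation passed in r, and 0 of the 60 passed in rho. Nearest in r were S100B with the oligodendrocyte sum (r = 0.87, rho = 0.86, exact permutation p = 0.00541 and 0.0107, adjusted p = 0.0661 and 0.0924), with r = 0.60 without the 2 libraries of most extreme sum. SLC1A2 with the microglia sum had a negative value (r = -0.85, rho = -0.83, exact permutation p = 0.00429 and 0.0154, adjusted p = 0.0661 and 0.0924), with r = -0.61 without the 2 libraries of most extreme sum. So did GJA1 with the neuron sum (r = -0.84, rho = -0.69, exact permutation p = 0.00551 and 0.0694, adjusted p = 0.0661 and 0.208), with r = -0.64 without the 2 libraries of most extreme sum. With Puberty 2 added, r of AQP4 with the ependymal and tanycyte sum changed sign, to -0.46, and that of GFAP was 0.81. In the same 9 libraries r was 0.84 for S100B with oligodendrocytes, -0.43 for SLC1A2 with microglia and -0.18 for GJA1 with neurons.

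A wider list of 50 astrocyte genes, of potassium and bicarbonate transport, GABA uptake, endfoot anchoring, metabolism, lineage and reactivity, was examined beside the 10. Of these, 46 had values under their listed symbol and 42 were tested (41 without Puberty 2). Limma called 0 of them in each comparison with or without Puberty 2, beside 0% of all genes, and 1 reached an unadjusted p below 0.05 (between prepuberty and puberty, with all 9 libraries). Their median log2 fold changes were -0.10, -0.01 and -0.07 in the 3 comparisons, with 14, 20 and 16 of the 42 positive, and -0.03, -0.08 and -0.09 without Puberty 2. Their summed level was 4262 to 5217 FPKM in the 8 libraries and 12654 FPKM in Puberty 2, of which APOE, MT3 and CST3 made up 10605 FPKM. In Puberty 2, 19 of the 46 lay below and 7 above their range in the other ewes, beside 72.1% of all genes tested outside it. The 46 include genes that did not pass the filter on low values, so the count and the share are not strictly alike. With all 9 libraries, 1 of the 42 genes, AGT, the precursor of angiotensin made by astrocytes, was separated in the same direction in 2 comparisons, beside 1.69% of all genes tested. Without Puberty 2 these were 3 of the 42, AGT, PPP1R3C and PAX6 (the latter pair named after their values were seen), beside 3.11% of all genes. The separation of PPP1R3C was absent at equal totals and that of PAX6 after quantile normalization, and PAX6 passed the filter only through the stages where it was high, so that its separation is no support for a difference. AGT was at 451, 320 and 340 FPKM in prepuberty, 318, 419 and 344 FPKM in puberty and 294, 294 and 234 FPKM in postpuberty. All postpubertal ewes thus lay below all others, except after scaling to equal totals with all 9 libraries, by a log2 fold change of -0.42 from prepuberty and -0.39 from puberty (limma adjusted p = 1 and 0.78), and by -0.28 from puberty without Puberty 2 (limma adjusted p = 1).

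The genes whose levels most resembled the mean centred pattern of the 10 astrocyte genes over the 8 libraries were ITPR2 (r = 0.95), UACA (r = 0.94), PPP2R1B (r = 0.93), PTPRZ1 (r = 0.93) and LOC121817573 (r = 0.90). ITPR2 encodes an inositol trisphosphate receptor that releases stored calcium, and PTPRZ1 a receptor phosphatase of glia. These genes varied little, by 1.51-fold to 2.03-fold over the 8 libraries. The mean pattern itself was nearly flat, from -0.25 in postpuberty 3 to 0.16 in puberty 1. GFAP, AQP4 and ALDOC had r = 0.02, 0.01 and -0.06 with it. The values were 0.70 for SLC1A3 and for SPARCL1, 0.65 for GJA1 and 0.59 for SLC1A2. Between these lay GLUL (0.48), S100B (0.31) and ALDH1L1 (0.25). Likeness to the mean pattern is thus not likeness to GFAP, AQP4 or ALDOC.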

How the data were processed

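Hypothalamus RNA of 9 ewes was sequenced by the authors. Per the labels' processing notes, reads were trimmed with Trimmomatic (0.32) and processed with HISAT2 and StringTie, on the assembly ARS-UI_Ramb_v3.0 per the study's methods. The deposited table holds FPKM per transcript, although it is described as raw counts; its values are not whole numbers, so the count test of the study's methods was not run. Of 89674 RefSeq transcripts, 89672 matched a RefSeq symbol, and mRNA transcripts were summed per gene. Newly assembled transcripts were not used.

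limma 3.58.1 (R 4.3.3) was run on log2(FPKM + 1), a scale that understates changes of low genes, for genes with a mean of at least 0.5 FPKM in 1 stage, with a variance trend, all 9 libraries in 1 fit and Benjamini-Hochberg adjustment over all genes. It was tested on simulated data. Correlations and their exact permutations used numpy 2.4.6. Ages came from the study's table of animals. Named were all 10 genes, transcripts with at least 10% of a gene, listed genes called or separated alike in 2 comparisons, and the 5 genes most like the mean pattern. The minor SLC1A3 transcript and single genes of the marker lists were named after their values were seen. Members and lists were chosen with earlier results of these data known.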

Additional observations from a re-analysis of the deposited data

How the results depend on the processing

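Under all settings tried, 0 of the 10 astrocyte genes were called by limma: upper quartile scaling, equal totals, quantile normalization, a pseudocount of 0.1, no filter on low values or a filter at 5 FPKM, array quality weights, robust or untrended variance, a replicate block, other transcript sums, no fold minimum, only the 6 libraries compared, and leaving out each library in turn. Among all genes, array quality weights led to 4 calls between prepuberty and puberty and 1 between puberty and postpuberty, against 0. They gave Puberty 2 a weight of 0.0653 and prepuberty 3 a weight of 8.13, against 0.726 in prepuberty 1 and 0.541 in prepuberty 2. The prepubertal stage thus rested mostly on 1 library in that fit. Leaving out each library gave 0 calls among genes and 0 to 1 among all transcripts. Leaving out Puberty 2 changed the sign of 3, 4 and 0 of the 10 differences in the 3 comparisons, array quality weights of 5, 5 and 2, and quantile normalization of 3, 3 and 0. Between prepuberty and postpuberty 4 signs changed without postpuberty 3 and 3 without prepuberty 2. Scaling moved the median over all genes: between prepuberty and puberty it was -0.14 as deposited, -0.28 at equal totals and 0.01 after quantile normalization. After quantile normalization, GFAP, a gene at the very top of the distribution, was higher in all postpubertal than in all pubertal ewes. The share of all genes separated in this comparison was not counted under that scaling, so the separation is no support for a difference.

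Replicate numbers are not stated to pair the ewes. Same-numbered libraries correlated at -0.32 to 0.52, but differently numbered libraries were not compared, so these values cannot decide whether the numbers pair. A fit with the replicate block called 0 genes. No alternative replaced the missing read counts, so that precision at low levels is unknown.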
